A study of Mus musculus with 4 samples.

Results

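Imprinted genes are expressed mainly or only from the copy inherited from a single parent. A list of 38 mouse imprinted genes was followed among 18193 genes measured on 4 expression arrays. A member was taken where the platform annotation gives a probe set that member's symbol alone, and where it had several, the brightest by the mean of the 4 arrays gave its value. This rule found 34 of the 38. H19, Zrsr1, Rtl1 and Dio3 had no probe set of their own among those used and are not analysed as members. Of the 34 members, 18 are known as paternally expressed and 14 as maternally expressed, while Gnas and Inpp5f give transcripts from either allele, depending on the isoform. The arrays measured total RNA, so these classes are background, and no value tells from which allele a transcript came.

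Samples were epiblast-like tissue at day 3 of SFEBq culture and mouse embryonic stem cells at day 0, with 2 samples of each. In SFEBq, dissociated stem cells quickly re-aggregate and the aggregates float in medium without serum. The labels carry no cell line, strain or genetic change, and they name a single cell type for all 4 samples, so day, culture format and medium cannot be told apart. Whether the duplicates came from separate cultures is not stated, so a p-value reflects only how these samples spread, perhaps for technical reasons, and the number of arrays limits the precision.

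The labels were set against marker genes. At day 3, 12 of 12 markers of the formative epiblast were called higher than at day 0 (median log2 difference 2.42, with Fgf5, Cldn6 and Sall2 the largest), and 12 of 12 markers of naive pluripotency were called lower (median -2.63, with Prdm14, Klf4 and Tfcp2l1 the largest). Markers of visceral endoderm, an extra-embryonic tissue, were called higher for 17 of 18, with a mean log2 signal of 9.70 and 9.81 on the day 3 arrays and 7.31 and 7.22 on the day 0 arrays. Apob (6.79), Cubn (5.86) and Ttr (4.32) had the largest differences of that list, and Gata6 was the member not called. Of 11 trophoblast markers, 5 were called higher and 3 lower, led by Tfap2c (-4.14), Krt18 (2.95) and Plac1 (2.49), with a mean of 7.14 on each day 3 array and 6.81 and 6.55 on the day 0 arrays. Of 11 fibroblast markers, 3 (27.3%) were called higher and 2 (18.2%) lower, led by Thy1 (1.82), Tagln (-1.31) and Acta2 (-1.18). Their mean was 5.48 and 5.35 on the day 3 arrays and 5.37 and 5.34 on the day 0 arrays. Of all 18193 genes, 20.9% were called higher and 21.4% lower. No value in the table was exactly 0 and no detection calls were used. The part of these other cell types in the differences of imprinted genes was not tested, and in such bulk RNA more cells of a type cannot be told apart from more RNA per cell.

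Imprints are DNA methylation marks that egg and sperm place differently at control regions, and somatic cells copy them at each division. Many imprinted genes lie in clusters, where a control region, an insulator or a long non-coding RNA sets which parental copy is read. In the early embryo, the zinc finger protein ZFP57 binds the methylated hexamer TGCCGC at these regions and recruits TRIM28, which protects the marks while the rest of the genome loses methylation. Imprinted genes are known for roles in growth, the placenta and the brain, and pluripotent stem cells in culture can lose or gain imprints.

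The 250 bases before the transcription start are printed for 6 members with some of the largest differences in either direction. Peg3, Gnas and Grb10 rose more than Meg3 and are not printed. Sequences come from RefSeq on GRCm38.p6 and run 5′ to 3′ on the strand of the gene. Capitals mark CG dinucleotides, the sites that methylation acts on in mammals, and TGCCGC or its reverse complement GCGGCA, searched on both strands. Magel2 (chr7:62376729-62376978, plus strand) and Ndn (chr7:62348027-62348276, plus strand) are neighbours on chromosome 7 and were higher at day 3, as were Nnat (chr2:157559828-157560077, plus strand) and Meg3 (chr12:109540746-109540995, plus strand, the first of its 2 listed starts). Plagl1 (chr10:13090582-13090831, plus strand) and Slc38a4 (chr15:97055957-97056206, minus strand, the most upstream of its 3 listed starts) were lower at day 3.
Magel2: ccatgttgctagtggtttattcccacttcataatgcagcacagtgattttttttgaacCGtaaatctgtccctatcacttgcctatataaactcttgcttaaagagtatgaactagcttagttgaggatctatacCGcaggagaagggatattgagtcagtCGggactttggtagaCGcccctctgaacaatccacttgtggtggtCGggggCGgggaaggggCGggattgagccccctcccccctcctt
Ndn: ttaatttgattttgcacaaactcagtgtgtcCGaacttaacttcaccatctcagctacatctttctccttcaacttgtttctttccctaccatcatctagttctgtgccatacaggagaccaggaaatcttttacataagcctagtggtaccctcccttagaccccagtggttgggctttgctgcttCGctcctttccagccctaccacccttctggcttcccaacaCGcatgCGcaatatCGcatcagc
Nnat: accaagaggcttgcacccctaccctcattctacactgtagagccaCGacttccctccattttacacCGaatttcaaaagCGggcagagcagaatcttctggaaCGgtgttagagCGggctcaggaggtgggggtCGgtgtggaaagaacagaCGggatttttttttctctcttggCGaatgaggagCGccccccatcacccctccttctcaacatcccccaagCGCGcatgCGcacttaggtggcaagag
Meg3: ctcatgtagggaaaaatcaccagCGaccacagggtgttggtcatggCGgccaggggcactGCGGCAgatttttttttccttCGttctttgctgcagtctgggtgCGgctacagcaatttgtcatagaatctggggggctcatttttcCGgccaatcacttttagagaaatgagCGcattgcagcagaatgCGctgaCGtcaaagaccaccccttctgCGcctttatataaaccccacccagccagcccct
Plagl1: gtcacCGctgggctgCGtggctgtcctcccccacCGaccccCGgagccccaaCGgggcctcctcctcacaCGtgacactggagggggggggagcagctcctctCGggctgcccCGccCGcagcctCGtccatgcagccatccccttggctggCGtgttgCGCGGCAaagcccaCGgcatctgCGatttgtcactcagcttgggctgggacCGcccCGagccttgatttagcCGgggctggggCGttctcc
Slc38a4: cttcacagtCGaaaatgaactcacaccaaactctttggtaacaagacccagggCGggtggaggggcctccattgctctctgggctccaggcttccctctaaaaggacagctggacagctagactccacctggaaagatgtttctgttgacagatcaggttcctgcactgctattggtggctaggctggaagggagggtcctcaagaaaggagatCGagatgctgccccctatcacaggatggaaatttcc

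These stretches held 7 CG dinucleotides before Magel2, 5 before Ndn, 12 before Nnat, 10 before Meg3, 19 before Plagl1 and 3 before Slc38a4. The hexamer stood once before Meg3 and once before Plagl1, in both as GCGGCA. Nnat had it once in the 50 bases after the start, which are not printed. The stretch before the other Meg3 start, also not printed, held no hexamer and 0 CG dinucleotides. No listed start of Peg3, Gnas or Grb10 had the hexamer in the 250 bases before it, although Grb10 had it after a start. Of 30 listed members with a RefSeq promoter, including members without a probe set, 10 (33.3%) held the hexamer in a window of 300 bases around at least 1 start, against 13.1% of 27025 genes in the same table. Counted by window, 24.4% of 45 member windows held it, against 11.6% of all 32851 windows. Member windows also had more CG dinucleotides, with a median of 15 against 7 in all windows, and more GC (58.3% against 52.7%), so base composition moved with the hexamer and its part was not tested. It was present for 6 of 13 members called higher at day 3, 1 of 4 called lower and 3 of 11 not called. The members called higher had more listed starts, so these counts by gene are not alike. Counted by window, the shares were 26.9% of 26 windows for members called higher, 16.7% of 6 for those called lower and 27.3% of 11 for those not called. A match is a description of letters and not of a bound site, and no match says only that the letters are not in these windows.

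Between day 3 and day 0, 16 of the 34 imprinted genes were called higher and 6 lower, and 12 were not called (limma, Benjamini-Hochberg adjusted p under 0.05 over all 18193 genes). All genes were called in 42.3% of cases, with 20.9% higher and 21.4% lower, so the share of members called higher (47.1%) stood above that of all genes, and the share called lower (17.6%) stood somewhat below. At least 2-fold differences were called for 8 members higher and 4 lower, against 5.93% of all genes higher and 4.25% lower. The median log2 difference, day 3 minus day 0, was 0.19 over the members and 0.01 over all genes. For 24 of 34 members (70.6%) the day 3 and day 0 arrays did not overlap, close to the share of all genes (69.0%). Brighter genes are called more often, and 22 members lay above the median level of all genes. Among those 22, 13 were called higher and 5 lower, against 29.0% and 33.7% of all genes above that level. Among the 12 members at or below it, 3 were called higher and 1 lower, against 12.8% and 9.17% of all genes there.

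**Figure D1:**
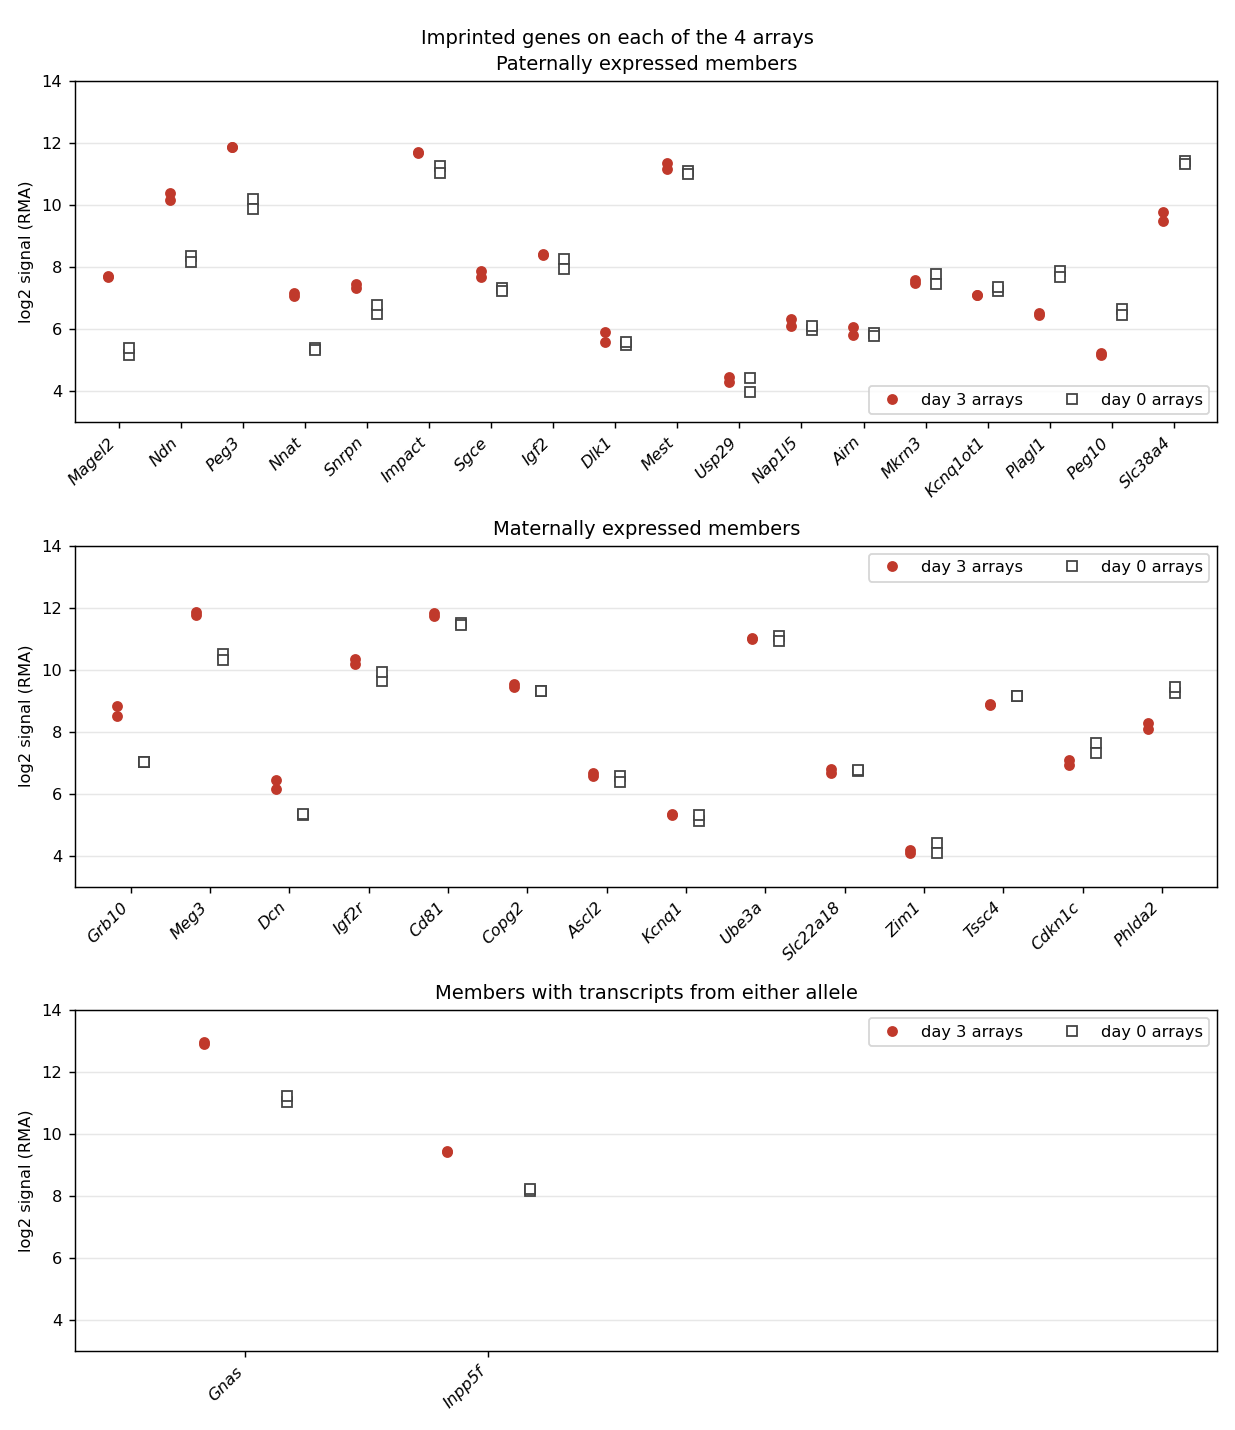
Log2 signal (RMA) of the 34 imprinted genes on each array, with day 3 arrays as filled circles left of day 0 arrays as open squares, in panels by the known expressed allele. Magel2, Ndn, Peg3, Nnat, Grb10, Meg3, Gnas and Inpp5f lie higher at day 3, and Slc38a4, Peg10, Plagl1 and Phlda2 lie lower, each without overlap between days. Signals of different probe sets are not comparable with each other.

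**Figure D2:**
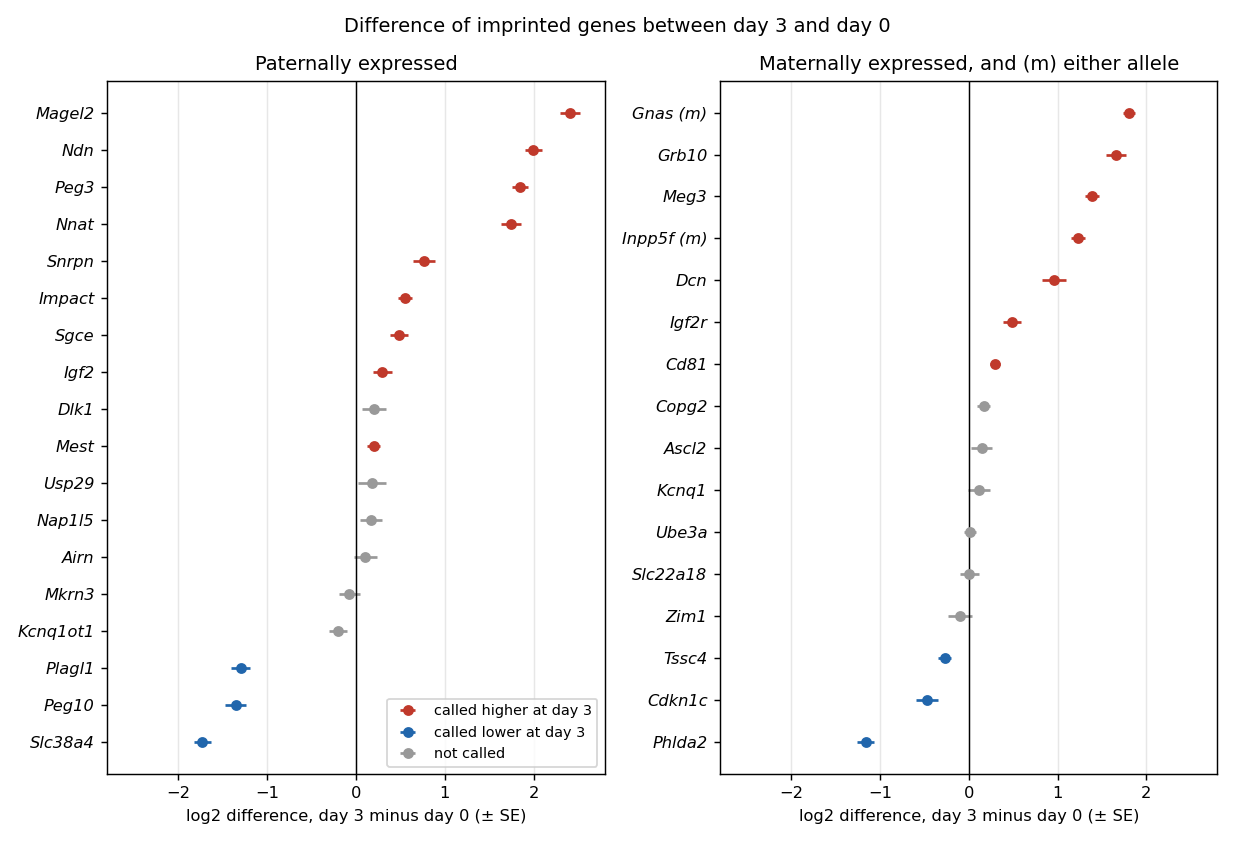
Log2 difference of each imprinted gene, day 3 minus day 0, with the standard error of the limma fit as a bar (shorter than the point where none shows). The 34 members run from 2.41 for Magel2 to -1.73 for Slc38a4, and 12 members, in grey, were not called.

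The cluster around Snrpn and Ube3a on chromosome 7, whose human counterparts are lost in Prader-Willi syndrome (the paternal genes) and Angelman syndrome (the maternal UBE3A), had 3 of its 5 members called higher and none lower. Magel2, encoding a MAGE-family protein that works with ubiquitin ligases, had log2 signals of 7.67 and 7.73 on the day 3 arrays and 5.19 and 5.39 on the day 0 arrays. Both day 3 arrays were far above both day 0 arrays, and the difference of 2.41 ± 0.12 (SE, adjusted p = 6.1e-08, limma), a 5.32-fold rise, was the largest of all members. Ndn, encoding the related MAGE protein necdin of postmitotic neurons, had 10.16 and 10.38 at day 3 against 8.38 and 8.17 at day 0. It rose by 1.996 ± 0.10 (adjusted p = 6.7e-08, limma), or 3.99-fold, without overlap of the days. Snrpn, encoding a core protein of spliceosomal particles, had 7.45 and 7.33 at day 3 against 6.48 and 6.77 at day 0. This smaller rise of 0.77 ± 0.12 (adjusted p = 4.1e-04, limma) comes from the single probe set given to Snrpn alone.

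The other 2 members of that cluster were not called. Mkrn3, encoding a makorin ring finger protein known for restraining the onset of puberty, had 7.49 and 7.59 at day 3 and 7.78 and 7.45 at day 0, with the day 3 arrays inside the day 0 range. Ube3a, an E3 ubiquitin ligase that is imprinted in neurons and expressed from both alleles in most other cells, had 11.002 and 11.03 at day 3 and 11.08 and 10.93 at day 0, also without separation. The difference of Ube3a was 0.01 ± 0.07, although 2 of its 6 probe sets were called lower in the fit over all probe sets, with log2 differences of -0.25 and -0.52. Among genes between or beside these members, Snhg14, the long non-coding host of small nucleolar RNAs that overlaps Ube3a on the other strand, rose by 1.92 ± 0.12, and Atp10a, a phospholipid flippase, rose by 2.11 ± 0.11. Peg12, a paternally expressed gene next to Mkrn3, fell by 0.98 ± 0.12 at a low level of 4.002 and 4.10 at day 3 and 5.09 and 4.98 at day 0. The nearest measured genes further out, Gabra5 (0.61 ± 0.15) and Chrna7 (1.60 ± 0.10), were called higher too, while Ipw, inside the cluster, was not called (0.16).

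**Figure D3:**
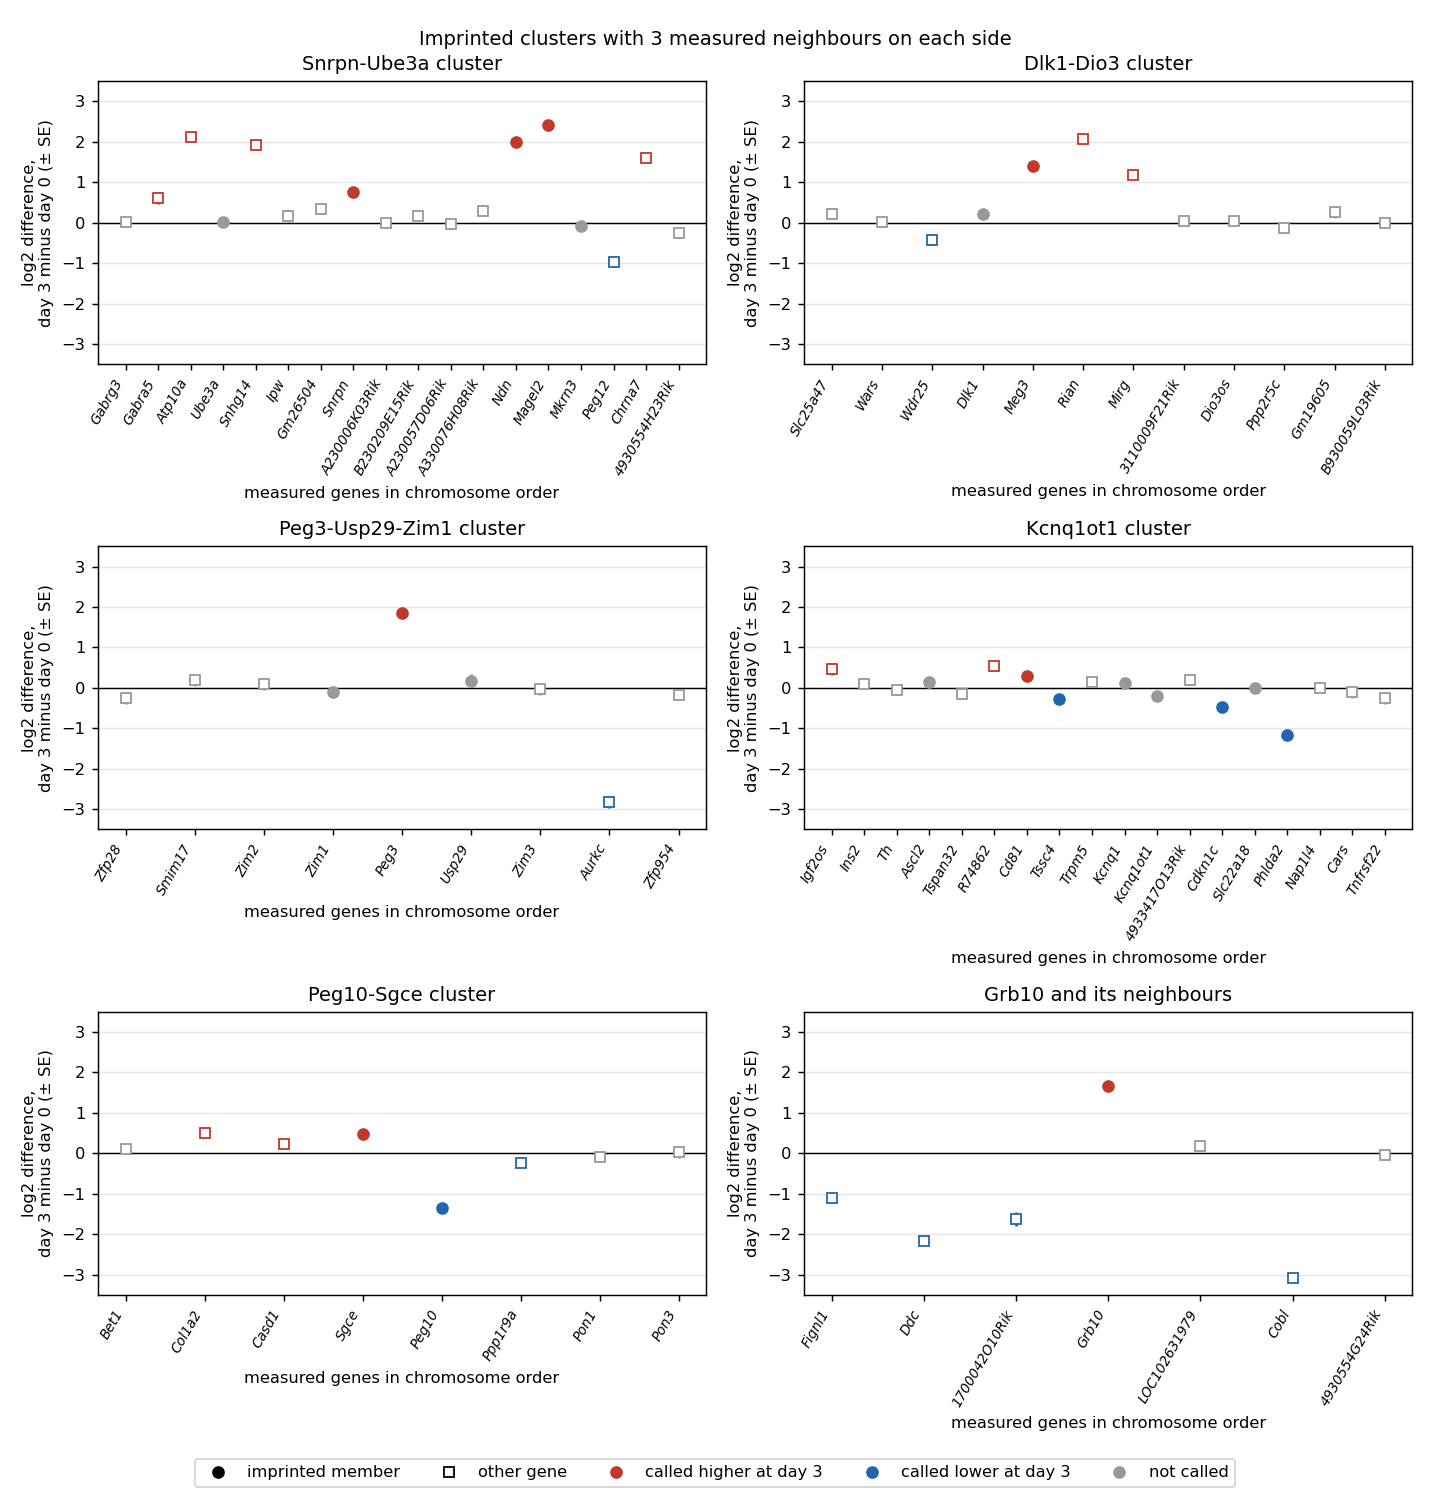
Log2 difference, day 3 minus day 0, of the measured genes of 5 imprinted clusters and of Grb10, in chromosome order with the 3 nearest measured genes on each side. Circles are imprinted genes of the list, open squares are other genes, and bars are standard errors, mostly shorter than the symbols. Members of a cluster differ in direction, as Peg10 (-1.36) and Sgce (0.48) show, and neighbours outside clusters were also called in both directions. Some of these neighbours, such as Cobl and Ddc beside Grb10, are known or reported as imprinted but are not on the list.

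On the same chromosome, the cluster of Peg3, Usp29 and Zim1 had a single called member. Peg3, encoding a large zinc finger transcription factor known for its part in growth and maternal care, had 11.87 and 11.88 at day 3 against 10.19 and 9.87 at day 0. It rose by 1.85 ± 0.09 (adjusted p = 6.9e-08, limma), or 3.60-fold, and no arrays of the 2 days overlapped. The mean of its 5 probe sets, 2 of which had signals of at most 2.90, gave 1.04. Usp29, a ubiquitin-specific protease gene that shares its promoter region with Peg3, had 4.30 and 4.46 at day 3 and 3.98 and 4.42 at day 0. Zim1, a maternally expressed zinc finger gene, had 4.20 and 4.09 at day 3 and 4.41 and 4.08 at day 0. Both overlapped between days and were close to the first quartile of the arrays (4.30 to 4.33), where RMA compresses differences. Of the neighbours, Zim2 and Zim3 were not called, and Aurkc, a meiotic aurora kinase, fell by 2.83 ± 0.13.

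The growth factor Igf2, its clearance receptor Igf2r and the signalling adaptor Grb10 were each called higher at day 3, by different amounts. Igf2, which drives fetal growth from the paternal copy, had 8.42 and 8.39 at day 3 against 8.26 and 7.95 at day 0. Its rise of 0.30 ± 0.11 was just within the threshold (adjusted p = 0.048, limma), and it was lost in the fit over all probe sets (adjusted p = 0.075). Leaving out the second day 0 array (0.14, adjusted p = 0.32), the first day 3 array (0.28, adjusted p = 0.23) or the second day 3 array (0.31, adjusted p = 0.18) lost it too, as did median centring (0.16, adjusted p = 0.26), while without the first day 0 array the rise was 0.45 (adjusted p = 0.0013). Igf2r, the maternally expressed receptor that takes Igf2 up for lysosomal breakdown, had 10.35 and 10.18 at day 3 against 9.63 and 9.93 at day 0. It rose by 0.48 ± 0.10 (adjusted p = 0.0025, limma), both of its probe sets were called higher, and the call was lost without the first day 3 array (0.40, adjusted p = 0.069). Airn, the paternal antisense transcript that silences the paternal Igf2r copy outside neurons, had 5.80 and 6.07 at day 3 and 5.88 and 5.78 at day 0. These overlapped, the difference of 0.10 ± 0.13 was not called, and 1 of 5 Airn probe sets, a dim one, was called higher (0.43).

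Grb10, an adaptor protein that binds the insulin and IGF receptors and restrains growth, had 8.83 and 8.52 at day 3 against 7.01 and 7.02 at day 0. The rise of 1.66 ± 0.11 (adjusted p = 7.1e-07, limma), or 3.16-fold, was the largest of the maternally expressed members, while the mean of its 3 probe sets rose by 0.75. Grb10 is maternal in most tissues and paternal in neurons, and its isoforms were not separated here. Of its 6 nearest measured genes on chromosome 11, 4 were called lower and 2 were not called (0.18 and -0.05). Cobl, an actin nucleator gene, fell by 3.09 ± 0.09, and Ddc, the aromatic amino acid decarboxylase that is imprinted in the heart, fell by 2.17 ± 0.08. Fignl1, a gene of recombination repair, fell by 1.10 ± 0.06, and the transcript 1700042O10Rik fell by 1.62 ± 0.17.

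In the Dlk1-Dio3 cluster on chromosome 12, the maternally expressed non-coding RNA was called higher and the paternally expressed protein gene was not. Meg3, a long non-coding RNA known to be silenced in some mouse induced pluripotent stem cell lines, had 11.85 and 11.75 at day 3 against 10.51 and 10.32 at day 0. It rose by 1.39 ± 0.07 (adjusted p = 1.2e-07, limma), or 2.62-fold, and all 11 of its probe sets were called higher, with log2 differences between 0.58 and 1.88. Dlk1, a transmembrane protein that resembles Notch ligands, had 5.59 and 5.90 at day 3 and 5.49 and 5.60 at day 0. The day 3 and day 0 arrays of Dlk1 overlapped, and the difference of 0.20 ± 0.14 was not called (adjusted p = 0.29). Rian and Mirg, the next maternally expressed non-coding genes after Meg3, rose by 2.06 ± 0.08 and 1.19 ± 0.09. Rian had 13.22 and 13.28 at day 3 against 11.32 and 11.06 at day 0. Dio3os, at the far end, was not called (0.03), and Wdr25, outside the cluster beside Dlk1, fell by 0.42.

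The Kcnq1ot1 cluster, at the end of chromosome 7, is the largest of the list and had 3 of its 8 members called lower and 1 higher. Of all genes, 21.4% were called lower and 20.9% higher. Among all genes above the median level, where 5 of these 8 members lie, 33.7% were called lower and 29.0% higher. Phlda2, a pleckstrin homology protein that limits growth of the placenta, had 8.09 and 8.28 at day 3 against 9.26 and 9.44 at day 0. It fell by 1.16 ± 0.10 (adjusted p = 3.4e-06, limma), or 2.24-fold, and all day 3 values lay below all day 0 values. Cdkn1c, which encodes the cell cycle inhibitor p57, had 7.08 and 6.94 at day 3 against 7.64 and 7.32 at day 0. It fell by 0.47 ± 0.12 (adjusted p = 0.01, limma), and the call was lost without the first day 0 array (-0.31, adjusted p = 0.059), the first day 3 array (-0.55, adjusted p = 0.051) or the second day 3 array (-0.40, adjusted p = 0.12). Tssc4, whose human protein takes part in assembling spliceosomal particles, had 8.86 and 8.90 at day 3 against 9.15 and 9.16 at day 0. This was a small fall of 0.27 ± 0.07 (adjusted p = 0.013, limma) between close duplicates. The size stayed alike without the first (-0.25, adjusted p = 0.091) or the second (-0.29, adjusted p = 0.060) day 3 array, although the call was lost with a single day 3 sample left.

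Cd81, a tetraspanin of the cell surface, was the member of this cluster called higher, with 11.74 and 11.81 at day 3 against 11.51 and 11.44 at day 0. The rise was 0.30 ± 0.06 (adjusted p = 0.0017, limma), or 1.23-fold, and 0.16 after median centring (adjusted p = 0.039). Kcnq1ot1, the paternal non-coding RNA that silences the other genes of the cluster in cis, had 7.09 and 7.10 at day 3 and 7.22 and 7.38 at day 0. Both day 3 arrays were below both day 0 arrays, yet the difference of -0.21 ± 0.10 was not called (adjusted p = 0.14), and none of its 6 probe sets was called. It was called after median centring (-0.34, adjusted p = 0.019) and after a further quantile normalization (-0.34, adjusted p = 0.024). Kcnq1, a potassium channel subunit (0.11), Ascl2, a trophoblast transcription factor (0.15), and Slc22a18, a transporter of the organic cation family (0.00), had overlapping arrays and were not called. Of the other genes in and beside the cluster, R74862 (0.55) and Igf2os (0.46) were called higher and the rest were not called, Tspan32, Trpm5, Nap1l4 and Cars among them.

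Of the clusters on chromosome 6, that of Peg10 and Sgce had its members called in opposite directions. Peg10, a gene derived from a retrotransposon and needed for the placenta, had 5.24 and 5.16 at day 3 against 6.65 and 6.47 at day 0. It fell by 1.36 ± 0.12 (adjusted p = 6.4e-06, limma), or 2.56-fold. Sgce, encoding epsilon-sarcoglycan and transcribed from the same promoter region in the other direction, had 7.69 and 7.87 at day 3 against 7.34 and 7.25 at day 0. It rose by 0.48 ± 0.10 (adjusted p = 0.0028, limma), but the rise rests on 1 of its 2 probe sets. The difference was 0.07 (adjusted p = 0.78, limma) when probe sets marked as matching more than 1 transcript were left out. The probe set then used had signals of at most 4.18, below the first quartile of the arrays (4.30 to 4.33), where RMA compresses differences. Leaving out the second day 3 array also lost the call of Sgce (0.40). Mest, which encodes a hydrolase-like protein of mesodermal tissue, had 11.18 and 11.35 at day 3 against 11.11 and 11.02 at day 0. This rise of 0.20 ± 0.07 was near the threshold (adjusted p = 0.045, limma), was smaller after median centring (0.07, adjusted p = 0.48) and was lost without the second day 0 array (0.15, adjusted p = 0.15) or the second day 3 array (0.11, adjusted p = 0.34). Copg2, a subunit of the COPI vesicle coat, had 9.54 and 9.43 at day 3 and 9.33 and 9.31 at day 0, without overlap, and its difference of 0.17 ± 0.07 was not called (adjusted p = 0.10).

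Of 9 measured members outside these clusters, 6 were called higher and 2 lower. Gnas, the gene of the stimulatory G protein alpha subunit and of several imprinted isoforms, had 12.96 and 12.91 at day 3 against 11.03 and 11.24 at day 0. It rose by 1.80 ± 0.07 (adjusted p = 1.3e-08, limma), or 3.49-fold, but its 5 probe sets differed. One dim probe set more was called higher (0.62), the other 3 were not called, the mean of all 5 gave 0.53, and without those marked as matching more than 1 transcript, the bright one among them, it was 0.36 (adjusted p = 0.098). Nnat, which encodes the small membrane protein neuronatin of neural and endocrine cells, had 7.15 and 7.06 at day 3 against 5.39 and 5.33 at day 0. It rose by 1.75 ± 0.11 (adjusted p = 4.9e-07, limma), or 3.35-fold, while Blcap, whose intron holds Nnat, was not called (-0.16). Inpp5f, an inositol phosphatase gene with a paternally expressed brain isoform, had 9.45 and 9.41 at day 3 against 8.18 and 8.22 at day 0. All 3 of its probe sets were called higher, and the brightest rose by 1.23 ± 0.08 (adjusted p = 3.8e-07, limma).

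Dcn, a proteoglycan of connective tissue, had 6.14 and 6.44 at day 3 against 5.33 at day 0 on both arrays. It rose by 0.96 ± 0.13 (adjusted p = 1.6e-04, limma). Lum, a related proteoglycan gene next to it, was not called (-0.04), at signals of at most 4.19, below the first quartile of the arrays. It is 1 of the 11 fibroblast markers, of which 3 were called higher and 2 lower. The second, dimmer Dcn probe set was not called (0.07). Impact, a regulator of translation that counters the kinase Gcn2, had 11.68 and 11.71 at day 3 against 11.27 and 11.03 at day 0. It rose by 0.55 ± 0.08 (adjusted p = 1.9e-04, limma), and the mean of its 3 probe sets gave 0.23 (adjusted p = 0.052). Nap1l5, a nucleosome assembly protein gene inside an intron of Herc3, had 6.11 and 6.32 at day 3 and 5.97 and 6.12 at day 0, with overlap, and was not called (0.17 ± 0.12). Its host Herc3 was called higher (0.39).

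Slc38a4 and Plagl1 were the 2 lone members called lower. Slc38a4, a transporter of neutral amino acids that is strong in placenta and liver, had 9.79 and 9.4997 at day 3 against 11.44 and 11.32 at day 0. It had the largest fall of all members, by 1.73 ± 0.09 (adjusted p = 1.3e-07, limma) or 3.32-fold, and its second probe set fell by 1.84. The transporter genes next to it, Slc38a1 (0.64) and Slc38a2 (0.75), were called higher, while Pced1b (-1.42) and Rpap3 (-0.23), also among its nearest measured genes, were called lower. Plagl1, also known as Zac1, encodes a zinc finger factor that halts the cell cycle and regulates other imprinted genes. It had 6.52 and 6.46 at day 3 against 7.88 and 7.70 at day 0. That fall of 1.30 ± 0.11 (adjusted p = 3.2e-06, limma), or 2.46-fold, was measured by a single probe set, marked _x_at. The other 2 Plagl1 probe sets were not called (0.09 and -0.165). Without marked probe sets the difference was 0.09 (adjusted p = 0.62, limma), so the fall rests on the probe set kept.

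**Figure D4:**
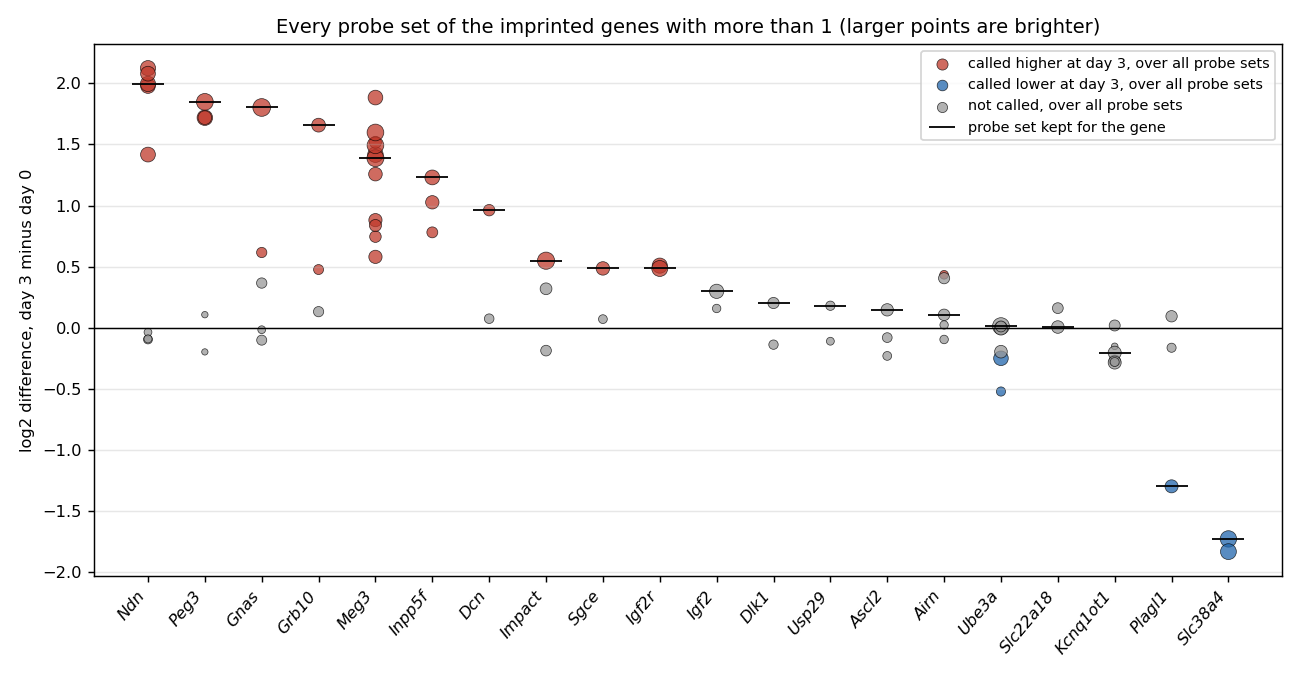
Log2 difference, day 3 minus day 0, of every probe set of the imprinted genes that have more than 1, with point area growing with brightness and a bar at the probe set kept for the gene. All 11 Meg3 and all 3 Inpp5f probe sets lie above 0 and both Slc38a4 probe sets below it, while those of Gnas, Grb10 and Plagl1 are spread.

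Probe sets of a gene differed in several ways. Ndn had 5 of 8 probe sets called higher, with log2 differences of 1.42 to 2.12, and its 3 others, at signals below the first quartile of the arrays, were between -0.10 and -0.04. Peg3 had 3 of 5 called higher, by 1.72 to 1.85. In contrast, Kcnq1ot1 had 0 of 6 probe sets called. The choice of the brightest probe set therefore sets the size of several values, and the mean of all probe sets gave 1.17 for Ndn, -0.46 for Plagl1 and 0.52 for Dcn.

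By parental class, 9 of 18 paternally expressed members were called higher and 3 lower, with a median log2 difference of 0.20, which was 0.11 without the second day 3 array. Of 14 maternally expressed members, 5 were called higher and 3 lower, with a median of 0.13. Both classes thus held strong rises (Magel2 and Ndn, against Grb10 and Meg3) and strong falls (Slc38a4 and Peg10, against Phlda2), and no difference between the classes was tested. Of the maternal members, 7 are known as maternal only in some tissues or isoforms. Without these, 2 of the other 7 were called higher and 2 lower (28.6% each), and the median was 0.00. The maternal median therefore rests on which genes are counted. Median centring turned the maternal median to -0.0044 and moved the paternal one to 0.07, while it moved the median of all genes to -0.12. Gnas and Inpp5f, with transcripts from either allele, were both called higher.

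The silencing RNAs stood beside their clusters as follows. Kcnq1ot1 was not called while 3 genes of its cluster were called lower and 1 higher. Airn was not called while Igf2r was called higher. Around the clusters and lone members, 105 measured genes that are no members lay within 3 places on either side. Of these, 21 were called higher and 18 lower, near the shares of all genes (20.9% and 21.4%), with a median log2 difference of 0.00. They are not a set free of imprinting, since several, such as Atp10a, Peg12, Cobl and Ddc, are themselves known or reported as imprinted. Of 15 other genes inside clusters, 4 were called higher and 0 lower, with a median of 0.16, and with so few genes the count of higher calls is also near the share of all genes. Those 4 were Snhg14, Rian, Mirg and R74862, the last a transcript of the Kcnq1ot1 cluster with a rise of 0.55.

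A further list of 50 known or reported imprinted genes gave 42 measured, of which 13 were called higher and 11 lower, with a median log2 difference of 0.01. Calcr, the calcitonin receptor gene near Peg10, which is imprinted in the brain, had the largest rise of that list, 4.77 ± 0.14, with 9.13 and 9.24 at day 3 against 4.63 and 4.20 at day 0. Cobl and Ddc, beside Grb10, had the largest falls. Its shares were 31.0% higher and 26.2% lower, against 20.9% and 21.4% of all genes.

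Most genes that protect imprints or write, keep and remove DNA methylation were lower at day 3. Of 21 such genes, 20 were measured, 14 of them called lower and 5 higher, with a median log2 difference of -0.44. Of all genes 21.4% were called lower, and 33.7% of those above the median level, where 18 of these 20 lie. Zfp57, whose protein binds the hexamer marked in the printed sequences, had 5.72 and 6.05 at day 3 against 7.83 and 7.81 at day 0. It fell by 1.94 ± 0.13 (adjusted p = 5.3e-07, limma), the days being clearly apart. Trim28, its corepressor partner, had 13.51 and 13.45 at day 3 against 13.92 and 13.89 at day 0, a smaller fall of 0.42 ± 0.05. Dppa3, a maternal factor that shields imprints from oxidation, fell by 0.89 ± 0.09, and Ctcf, the insulator protein of the H19-Igf2 control region, fell by 0.20 ± 0.06.

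Tet2, a dioxygenase that oxidises methylated cytosine, fell by 4.09 ± 0.10, and Dnmt3l, a cofactor of the de novo methyltransferases, fell by 1.51 ± 0.06. Dnmt3b, a de novo methyltransferase of the epiblast, rose by 1.37 ± 0.07, with 13.96 and 13.86 at day 3 against 12.65 and 12.43 at day 0. DNA methylation itself was not measured, and these values stand beside those of the imprinted genes without a test of any relation.

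**Figure D5:**
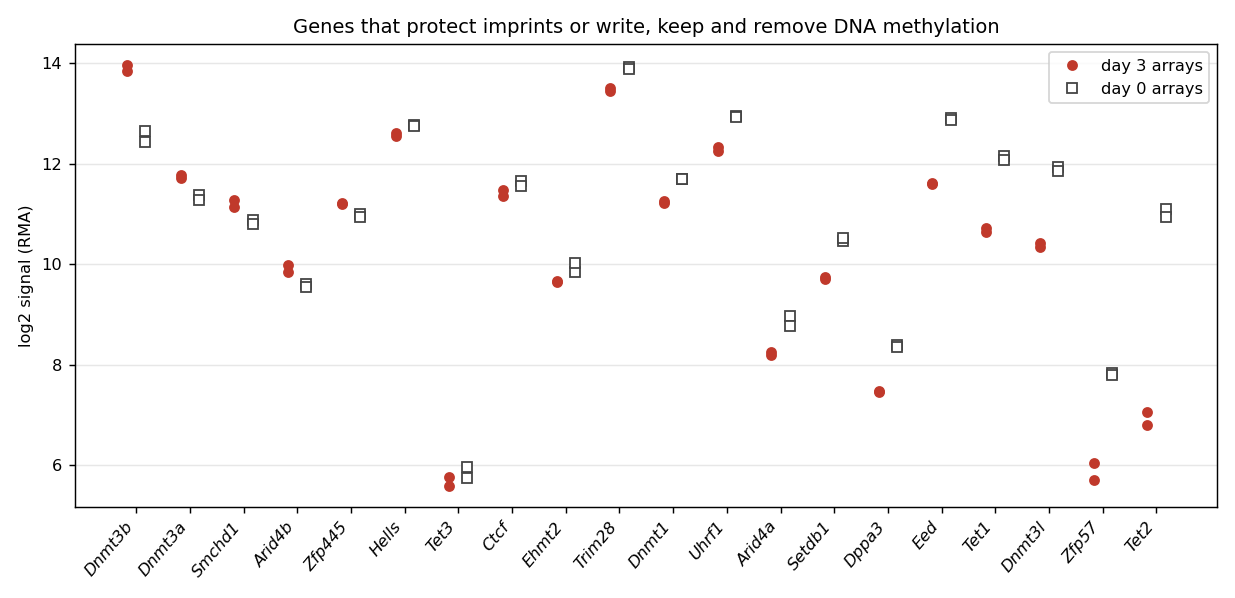
Log2 signal (RMA) on each array of 20 genes of imprint protection and DNA methylation, ordered by their difference, with day 3 arrays as filled circles left of day 0 arrays as open squares. Dnmt3b lies higher at day 3, while Zfp57 and Tet2 lie lower, and Tet3 was the gene not called.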

How the data were processed

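Biotin-labelled RNA of 4 samples was hybridized to Affymetrix arrays. The deposited table holds log2 values that the authors made with RMA in R 2.13.0, per the submitters' processing notes. RMA corrects background, makes array distributions alike (medians 5.78 to 5.79) and summarises probes. It hides changes in total RNA and compresses differences of dim probe sets. The genome build behind the probe annotation was not given in the sources used here.

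Of 45101 probe sets (64 controls), 34945 had 1 symbol, 932 several and 9224 none. Identifiers of 34741 were found in RefSeq (GRCm38.p6), and 0 symbols changed. RefSeq gave the order of neighbouring genes and the promoters. Each of 18193 genes took its value from the probe set brightest by the mean of the 4 arrays, a choice that can favour a probe set very high on 1 day.

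Days were compared in R 4.3.3 with limma 3.58.1 (lmFit, eBayes with an intensity trend), two-sided, with no covariate and Benjamini-Hochberg adjustment over all genes. Calls were made at an adjusted p under 0.05. The fit was tested on simulated data. A separate fit over all probe sets covered the single probe sets.

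The members, lists and tests were chosen with earlier results of these data known. Parental classes and clusters come from general knowledge. Named genes were all measured members, the 3 genes of each list with the largest difference, Zfp57, Trim28, Dppa3, Dnmt3b and Ctcf, and neighbours of a cluster described. The other genes called higher in the list of imprint protection and methylation were named as well. Alternatives were no trend, a robust prior, an unmoderated test, a further quantile normalization, median centring, only genes brighter than the median, the mean of all probe sets, no probe sets marked _s_at, _x_at or _a_at, an adjusted p under 0.01, the replicate number as a block, and each array left out.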

Additional observations from a re-analysis of the deposited data

Results flagged for a closer look

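Probe sets that the platform annotation gives to both Snurf and Snrpn were not used for the comparison of genes, since they do not belong to Snrpn alone. Snurf is an upstream reading frame of the same transcript. Of 6 such probe sets, 4 were called higher at day 3 in the fit over all probe sets (limma, Benjamini-Hochberg), which brought them here as signal outside the values used. The first had 12.06 and 11.94 at day 3 against 10.87 and 10.98 at day 0, a log2 difference of 1.0751 ± 0.07. The second had 11.93 and 11.81 at day 3 against 10.70 and 10.83 at day 0, a difference of 1.1036 ± 0.07. The third had 10.43 and 10.30 at day 3 against 8.76 and 9.27 at day 0, a difference of 1.3533 ± 0.14. The last had 11.89 and 11.76 at day 3 against 10.46 and 10.59 at day 0, a difference of 1.3000 ± 0.07. All 4 were larger than the 0.77 of the probe set given to Snrpn alone. The other 2, at signals of at most 3.32, were not called.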

How the results depend on the processing

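RMA compresses differences of dim probe sets, and no detection calls separated them from background. Leaving out 1 array leaves a day with 1 sample, which is assumed to vary like the other day's pair and the other genes, so a call lost in this way need not mean a smaller difference. Of the 22 called members, 13 kept their call and sign in all alternatives that kept the gene, the unmoderated test left aside. An unmoderated test per gene called 5 members higher and 3 lower, and 2149 genes in all. Leaving out 1 array gave 13 to 16 members called higher, 4 to 6 called lower and 5848 to 7440 genes in all. The paternal median was 0.2008 and moved to 0.0669 after median centring and 0.2971 over the 11 members above the median level, with 0.1071 (without the second day 3 array) to 0.2838 when 1 array was left out. The maternal median was 0.1295, and it was 0.0534 after a further quantile normalization, -0.0044 after median centring, 0.0047 without members of tissue or isoform dependence, and 0.0889 to 0.1701 when 1 array was left out. Median centring was applied to the values of the 18193 genes and not to all probe sets, whose array medians were already alike (5.78 to 5.79). It moved the median of all genes from 0.01 to -0.12 and turned the split of 3803 higher and 3900 lower genes into 2864 and 5652. Each value given after median centring carries that shift of all genes. Without marked probe sets, Plagl1 had a difference of 0.0929 that was not called, in place of its fall. The causes were not tested. With the replicate number as a block, 16 members were called higher, 6 lower and 7660 genes in all. Deviations of same-numbered arrays from their day means had a correlation of -0.02 over all genes. That value cannot show whether same-numbered samples shared a culture or batch, which the labels do not state.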

Other observations

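H19, the maternally expressed non-coding RNA next to Igf2, had no probe set of its own. A probe set given to both Mir675, the microRNA inside H19, and H19 had 11.70 and 11.15 at day 3 and 11.69 and 11.05 at day 0. The duplicates of each day lay further apart than the days did, and the log2 difference of 0.05 ± 0.20 was not called (adjusted p = 0.89, limma over all probe sets). A probe set given to both Airn and Igf2r had 4.41 and 4.78 at day 3 and 4.75 and 4.72 at day 0, and was not called (-0.14).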
